A study of Mus musculus with 27 samples.

Results

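The 3 genes described here, Cdkn2a, Cdkn2b and Cdkn1a, encode cell-cycle inhibitors that act as barriers to the reprogramming of fibroblasts. They were followed by every peak that overlapped 1 of 2 windows of the mouse build mm9, chr4:88915000-88962000 (47 kb) for the neighbouring genes Cdkn2a and Cdkn2b and chr17:29220000-29242000 (22 kb) for Cdkn1a. The windows held 66 of the 234651 peaks in 19 lists, 51 in the first (37 of H3K4me3, 14 of H3K27me3 and 0 of UTX) and 15 in the second (14 of H3K4me3, 0 of H3K27me3 and 1 of UTX). The series mapped H3K27me3 (8 lists), H3K4me3 (8 lists) and the demethylase UTX (3 lists) by chromatin immunoprecipitation and sequencing (ChIP-seq), in which a peak is a stretch where immunoprecipitated fragments pile up. It asked how UTX, an enzyme that removes methyl groups from H3K27, takes part in reprogramming to pluripotency.

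The cells were in 7 states. Utx-/Y aberrant iPS cells (2 clones, V19-OSKM strain, labelled as without doxycycline) were clones that had not reprogrammed properly. Utx-/Y (Utx-KO) and Utx+/Y (WT) ES cells (ESC) were of the V6.5 strain and were grown in N2B27 with 2i/LIF. Utx-/Y and Utx+/Y V19-OSKM mouse embryonic fibroblasts (MEF) were grown in 2i/LIF medium with doxycycline (dox), which switches on the OSKM reprogramming factors carried by this strain, or without it. All states were Y-bearing, and all fibroblast and iPS states carried the OSKM transgenes, including the untreated controls. UTX was mapped in WT ESC, WT MEF with dox and WT MEF. The duration of dox was not given in the sources used here, and the Utx genotype was taken from the labels.

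The Ink4/Arf locus is the classic gate against unlimited proliferation. Cdkn2a encodes p16Ink4a, an inhibitor of the cyclin D kinases that keeps RB active, and from another start and reading frame p19Arf, which binds Mdm2 and thereby stabilises p53. Cdkn2b encodes p15Ink4b, a close relative of p16Ink4a, and Cdkn1a encodes p21, a kinase inhibitor that is a main transcriptional target of p53. In proliferating fibroblasts and stem cells the Ink4/Arf locus is known as a target of Polycomb, the complexes that write and read H3K27me3, whereas H3K4me3 marks the starts of active or poised genes.

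Promoter sequences of the 3 genes are shown because H3K4me3 collects at gene starts rich in CG, and the 5 starts differ in that respect. They are taken from RefSeq (build GRCm38.p6, 250 bases before to 50 after the start; all 3 symbols matched), are written 5′ to 3′ along the gene, and have every CG in capitals. The starts lie at chr4:89282143-89282442 (p16Ink4a, minus strand), chr4:89294570-89294869 (p19Arf, minus strand), chr4:89310983-89311282 (Cdkn2b, minus strand), chr17:29090729-29091028 (Cdkn1a upstream start, plus strand) and chr17:29093519-29093818 (Cdkn1a downstream start, plus strand). These positions belong to another build than the peaks and cannot be laid over them.
p16Ink4a start of Cdkn2a: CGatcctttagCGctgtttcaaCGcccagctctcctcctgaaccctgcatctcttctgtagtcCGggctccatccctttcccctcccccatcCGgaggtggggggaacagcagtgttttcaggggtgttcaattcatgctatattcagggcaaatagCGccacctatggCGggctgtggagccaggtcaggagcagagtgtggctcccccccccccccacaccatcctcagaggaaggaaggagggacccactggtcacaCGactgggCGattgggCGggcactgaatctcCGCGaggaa
p19Arf start of Cdkn2a: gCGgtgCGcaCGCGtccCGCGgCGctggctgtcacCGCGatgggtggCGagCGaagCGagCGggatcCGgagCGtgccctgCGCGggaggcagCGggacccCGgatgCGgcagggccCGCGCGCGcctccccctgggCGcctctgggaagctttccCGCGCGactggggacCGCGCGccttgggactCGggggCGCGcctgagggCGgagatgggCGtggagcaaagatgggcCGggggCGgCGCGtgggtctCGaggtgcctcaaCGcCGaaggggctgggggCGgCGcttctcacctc
Cdkn2b start: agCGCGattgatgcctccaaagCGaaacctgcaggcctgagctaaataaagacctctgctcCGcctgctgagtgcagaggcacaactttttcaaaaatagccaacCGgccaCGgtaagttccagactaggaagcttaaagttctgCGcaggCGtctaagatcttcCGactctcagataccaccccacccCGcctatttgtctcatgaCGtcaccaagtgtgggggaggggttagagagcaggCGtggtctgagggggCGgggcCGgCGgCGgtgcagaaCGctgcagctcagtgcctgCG
Cdkn1a upstream start: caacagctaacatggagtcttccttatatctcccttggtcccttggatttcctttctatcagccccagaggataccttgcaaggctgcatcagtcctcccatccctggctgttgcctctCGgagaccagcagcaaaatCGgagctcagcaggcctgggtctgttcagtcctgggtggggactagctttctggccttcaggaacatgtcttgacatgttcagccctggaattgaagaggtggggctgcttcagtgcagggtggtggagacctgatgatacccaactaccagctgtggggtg
Cdkn1a downstream start: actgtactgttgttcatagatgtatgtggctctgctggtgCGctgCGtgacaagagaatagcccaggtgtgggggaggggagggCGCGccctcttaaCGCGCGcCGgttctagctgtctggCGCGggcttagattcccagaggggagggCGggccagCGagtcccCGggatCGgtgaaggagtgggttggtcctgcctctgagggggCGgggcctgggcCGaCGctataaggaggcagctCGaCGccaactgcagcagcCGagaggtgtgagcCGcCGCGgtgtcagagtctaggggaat

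The p19Arf promoter held 45 CG pairs and 77.0% GC, more CG pairs than 98.1% of the 32851 RefSeq mouse promoters, whose median was 7. The p16Ink4a promoter held 12 (60.3% GC), the Cdkn2b promoter 18 (57.7% GC), the downstream Cdkn1a promoter 23 (64.7% GC) and the upstream Cdkn1a promoter only 2 (54.7% GC). The p19Arf start is thus the CG-richest of the 5, and the upstream Cdkn1a start is the poorest, with more CG pairs than 14.1% of promoters. The GC box GGGCGG, searched on both strands, occurred 3 times at p19Arf, 2 times at the downstream Cdkn1a start, 1 time each at p16Ink4a and Cdkn2b and 0 times at the upstream Cdkn1a start, and 35.7% of all promoters held at least 1. Half-sites of the p53 response element were found at the upstream Cdkn1a start only, GGACTAGCTT from 73 bases and GAACATGTCT from 51 bases before the start (both strands searched), and 8.36% of all promoters held such a match. A match describes the letters and does not show that a factor binds there.

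Lists differed in length, and this bears on every value given below. The H3K4me3 lists held 16157 to 28232 peaks. The H3K27me3 lists ranged from 135 in iPS clone 1 and 737 in iPS clone 2 through 938 in dox-treated WT MEF, 4335 in dox-treated Utx-KO MEF, 4760 in WT MEF, 5679 in WT ESC and 5708 in Utx-KO MEF to 36231 in Utx-KO ESC. Sequencing depth was unknown, and how much of a difference comes from list length was not tested. Each state and mark had 1 library apart from the 2 iPS clones, so differences between states have no replicate check and carry no p-value. The deposited score was the authors' own value for a peak. It is used to rank a peak within its list and, in some alternatives, as a fixed minimum of 100. The share of peaks reaching 100 ran between 0% (H3K27me3, iPS clone 1) and 96.5% (H3K4me3, iPS clone 1), so that minimum cuts the lists unequally. In a bulk culture, a mark on a share of the cells and a weaker mark on all of them cannot be told apart.

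H3K4me3 was present in the Cdkn2a and Cdkn2b window in all 8 lists, as it was in 15.8% of 56199 consecutive 47-kb stretches of the genome. Merging the peaks of all lists gave 8 regions, and 3 of them recurred in at least 7 lists. The first recurrent region, chr4:88926206-88929528, was found in 7 lists and was missing from Utx-KO ESC. The second, chr4:88938042-88942842, and the third, chr4:88953489-88958379, were found in all 8, as were 31.7% of the 33646 merged H3K4me3 regions of the genome. The set of lists that held the first region was shared by 128 regions, or 0.380%.

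The spacing of the 3 recurrent regions was set against the spacing of the 3 gene starts, since no mm9 annotation was at hand. Their middles were 12.6 kb and 15.5 kb apart, while the RefSeq starts of p16Ink4a and p19Arf are 12.4 kb apart and those of p19Arf and Cdkn2b 16.4 kb. In 7 of the 7 lists with a peak in all 3 regions, the 3 starts at these distances fitted inside peaks at once. These lists hold the same regions, so they are not separate checks, and how often other sets of 3 regions would fit was not tested. The regions are nevertheless named by their order and were not assigned to a gene.

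**Figure D1:**
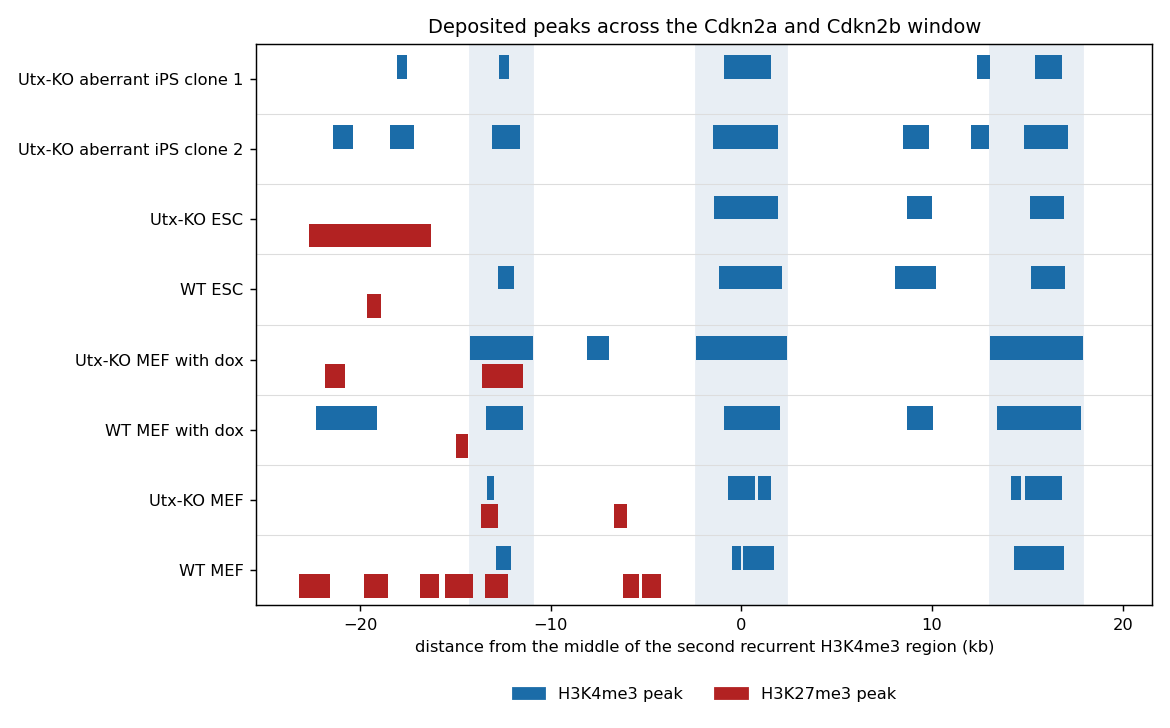
Deposited H3K4me3 peaks (blue) and H3K27me3 peaks (red) in the Cdkn2a and Cdkn2b window, 1 row per library, by distance in kb from the middle of the second recurrent H3K4me3 region; the 3 recurrent regions are shaded. All red bars lie left of the second region, the 7 red bars of WT MEF are the most of any row, and both iPS rows have none.

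The second recurrent region held the highest-scoring H3K4me3 peak of the window in 6 of 8 lists, and the third did so in Utx-KO MEF and WT MEF. Its peaks covered 2.46 and 3.42 kb in iPS clones 1 and 2, 3.41 kb in Utx-KO ESC, 3.29 kb in WT ESC, 4.80 kb in Utx-KO MEF with dox, 2.90 kb in WT MEF with dox, 2.16 kb in Utx-KO MEF and 2.10 kb in WT MEF. It was broadest in Utx-KO MEF with dox, and in both untreated fibroblast states it was split into 2 peaks. In iPS clone 2 its peak scored 3100, in the range where the score saturates, and ranked 312 of 28232. Peaks of equal score share a rank, and the Cdkn1a peak of that list had the same one.

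The third recurrent region covered 1.43 and 2.34 kb in iPS clones 1 and 2, 1.83 kb in Utx-KO ESC, 1.77 kb in WT ESC, 4.89 kb in Utx-KO MEF with dox, 4.41 kb in WT MEF with dox, 2.45 kb in Utx-KO MEF and 2.62 kb in WT MEF. The 4 fibroblast values were all above the 4 values of ESC and iPS cells. Its WT MEF peak ranked 869 of 18017, so it scored higher than most H3K4me3 peaks of that list.

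The first recurrent region was the narrowest and the most variable. It covered 0.497 and 1.47 kb in iPS clones 1 and 2, 0 kb in Utx-KO ESC, 0.831 kb in WT ESC, 3.32 kb in Utx-KO MEF with dox, 1.95 kb in WT MEF with dox, 0.358 kb in Utx-KO MEF and 0.809 kb in WT MEF. Both dox states were above every other state. Its peaks were of low or middling score, and the Utx-KO MEF peak ranked 20430 of 22056.

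**Figure D2:**
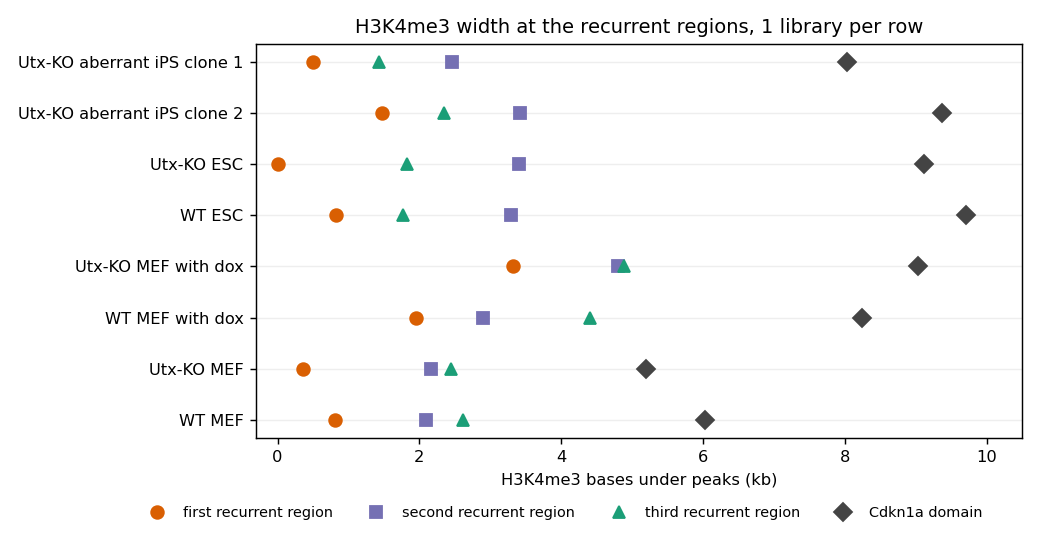
H3K4me3 bases under peaks, in kb, at the 3 recurrent regions of the Cdkn2a and Cdkn2b window and at the Cdkn1a domain, 1 library per row. The first region runs between 0 kb in Utx-KO ESC and 3.32 kb in Utx-KO MEF with dox, and the Cdkn1a domain is under 7 kb in Utx-KO MEF and WT MEF only.

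The other 5 regions were found in 1 to 4 lists. Both iPS clones, and no other list, had H3K4me3 at chr4:88922010-88923278 (0.549 kb in clone 1 and 1.27 kb in clone 2) and at chr4:88952506-88953474 (0.698 and 0.944 kb), and 3.58% of merged regions genome-wide were found in exactly these lists. Their scores were low, reaching those of 15.0% (clone 1) and 33.1% (clone 2) of the list at the former and 22.7% and 16.4% at the latter. The iPS lists were also the longest for H3K4me3, at 23388 and 28232 peaks. A region at chr4:88948504-88950636 was found in iPS clone 2 (1.39 kb), Utx-KO ESC (1.32 kb), WT ESC (2.13 kb) and WT MEF with dox (1.34 kb), a combination shared by 71 regions or 0.211%. At chr4:88918133-88921349 iPS clone 2 had 1.01 kb and WT MEF with dox 3.22 kb. The last, chr4:88932353-88933475, was a peak of 1.12 kb in Utx-KO MEF with dox with a score of 60.67, near the bottom of its list.

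H3K27me3 was called in the Cdkn2a and Cdkn2b window in 6 of the 8 lists, all but the iPS clones. Only 0.404% of the 47-kb stretches had it in 6 or more lists. With peaks of score 100 or more it was called in 3 lists, and with the 135 top-scoring peaks of each list in 0. The best rank of any H3K27me3 peak in the window was 159, in WT MEF with dox. A cut at 135, the length of the iPS clone 1 list, is very strict for the longer lists. It covered 0 kb in both iPS clones, 6.41 kb (1 peak) in Utx-KO ESC, 0.733 kb (1 peak) in WT ESC, 3.18 kb (2 peaks) in Utx-KO MEF with dox, 0.630 kb (1 peak) in WT MEF with dox, 1.56 kb (2 peaks) in Utx-KO MEF and 8.34 kb (7 peaks) in WT MEF. WT MEF thus had the most, and 0.132% of stretches had at least as many H3K27me3 bases in that list. Utx-KO ESC came next with 1 unbroken peak, chr4:88917778-88924187, at rank 1531 of 36231 by score, and 7.44% of stretches matched its coverage in that long list.

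The 7 WT MEF peaks made a broken domain from chr4:88917265-88918858 to chr4:88935238-88936203. Their scores ran between 96.79 and 414.85, and the highest, chr4:88924907-88926382, ranked 227 of 4760. All 14 H3K27me3 peaks of the window lay inside the 18.9 kb that this WT MEF domain spans, chr4:88917265-88936203, and none reached the second or the third recurrent H3K4me3 region. One more WT MEF peak, chr4:88913067-88914083 (score 212.01), lay 0.916 kb outside the window. In the other lists with H3K27me3 in the window, the nearest peak outside it was 228 kb away in Utx-KO ESC, 1233 kb in WT ESC, 392 kb in dox-treated Utx-KO MEF, 3602 kb in dox-treated WT MEF and 394 kb in Utx-KO MEF. These distances also depend on the length of the list.

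**Figure D3:**
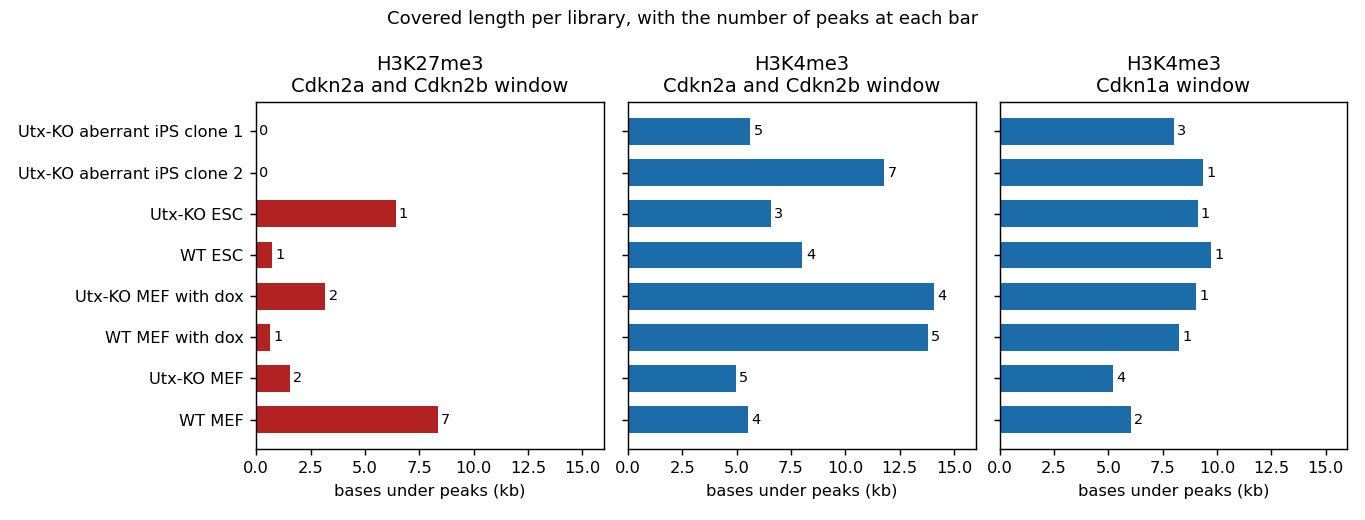
Bases under peaks, in kb, for H3K27me3 and H3K4me3 in the Cdkn2a and Cdkn2b window and H3K4me3 in the Cdkn1a window; each bar is 1 library and the number beside it is its count of peaks. H3K27me3 is longest in WT MEF (8.34 kb) and Utx-KO ESC (6.41 kb), and H3K4me3 in the first window is longest in the 2 dox states (14.1 and 13.8 kb).

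The 2 marks met in the same state only at the first recurrent H3K4me3 region, and only in 3 of the 4 fibroblast states. The overlap was 2118 bp in Utx-KO MEF with dox, where 9.33% of all H3K4me3 peaks overlapped H3K27me3, 358 bp in Utx-KO MEF, where 0.834% did, and 627 bp in WT MEF, where 1.48% did. In WT MEF with dox the nearest H3K27me3 peak, chr4:88925465-88926094, ended before the H3K4me3 peak that began at 88927066. Over the 18.9 kb span, H3K27me3 covered 0% in both iPS clones, 33.8% in Utx-KO ESC, 3.87% in WT ESC, 16.8% in dox-treated Utx-KO MEF, 3.33% in dox-treated WT MEF, 8.24% in Utx-KO MEF and 44.0% in WT MEF. H3K4me3 covered 5.52% and 19.8% of it in iPS clones 1 and 2, 0% in Utx-KO ESC, 4.39% in WT ESC, 23.5% in dox-treated Utx-KO MEF, 27.3% in dox-treated WT MEF, 1.89% in Utx-KO MEF and 4.27% in WT MEF. The states with the most H3K27me3 there, WT MEF and Utx-KO ESC, were among those with little H3K4me3. The next, Utx-KO MEF with dox (16.8%), had much H3K4me3 (23.5%), and WT ESC and Utx-KO MEF were low in both marks. The values thus give no steady opposition of the 2 marks.

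Dox in WT MEF came with less H3K27me3 and more H3K4me3 across the Ink4/Arf locus. H3K27me3 covered 0.630 kb with dox, against 8.34 kb without, a difference of -7.71 kb. Among the 2573 stretches with H3K27me3 in WT MEF, 96.2% had over 1.5 times fewer covered bases with dox. Over the whole lists H3K27me3 covered 0.643 Mb with dox and 4.59 Mb without. This and the later shares of stretches with less or more H3K27me3 counted only stretches marked in the list that covered more in the window. That choice favours the direction seen in the window. With the 938 top-scoring peaks of each list the difference was -3.66 kb. H3K4me3 covered 13.8 kb with dox, against 5.52 kb without, a difference of 8.30 kb. Of the 7 WT MEF H3K27me3 peaks, 3 overlapped H3K4me3 in WT MEF with dox and 1 did so in WT MEF, while 37.9% and 5.42% of all 4760 WT MEF H3K27me3 peaks did. The single H3K27me3 peak with dox fell on 1 of the 7, the one that scored highest without dox.

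H3K4me3 was wider with dox at many sites of the genome, so the regions of these genes were set against all regions that both lists held. Between WT MEF with dox and WT MEF the median ratio of covered bases over 12678 shared regions was 1.68. Of the 4 regions of the 3 genes, 2 were over 1.5 times wider with dox, as were 65.8% of all shared regions. The ratio was 2.41 at the first recurrent region, 1.38 at the second, 1.69 at the third and 1.37 at the Cdkn1a domain. The first region stood above 79.3% of all shared regions, the third recurrent region above 50.1%, the second above 23.8% and Cdkn1a above 22.1%.

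In Utx-KO MEF, dox came with more H3K4me3 and, unlike in WT MEF, with more H3K27me3 in the Cdkn2a and Cdkn2b window. H3K27me3 covered 3.18 kb with dox, against 1.56 kb without (difference 1.62 kb). Of the 2461 stretches with H3K27me3 in Utx-KO MEF with dox, 77.2% had over 1.5 times more than in Utx-KO MEF. The 2 peaks with dox scored 52.86 and 55.03, close to the lowest score of any list, 50, and with peaks of score 100 or more alone the difference was -0.66 kb. A score of 100 was reached by 40.6% of H3K27me3 peaks with dox, against 91.8% without. H3K4me3 covered 14.1 kb with dox, against 4.97 kb without (difference 9.17 kb). All 4 regions were over 1.5 times wider with dox, as were 90.5% of 13022 shared regions, whose median ratio was 2.14. The ratio was 9.28 at the first recurrent region, above 99.3% of shared regions, but 2.22 at the second, 2.00 at the third and 1.74 at Cdkn1a. The 9.28 rests on a Utx-KO MEF peak of only 358 bp, with a score of 83.42 and rank 20430 of 22056. Of the 7 WT MEF H3K27me3 peaks, 2 overlapped H3K4me3 of Utx-KO MEF with dox, and 24.3% of all WT MEF H3K27me3 peaks did.

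**Figure D4:**
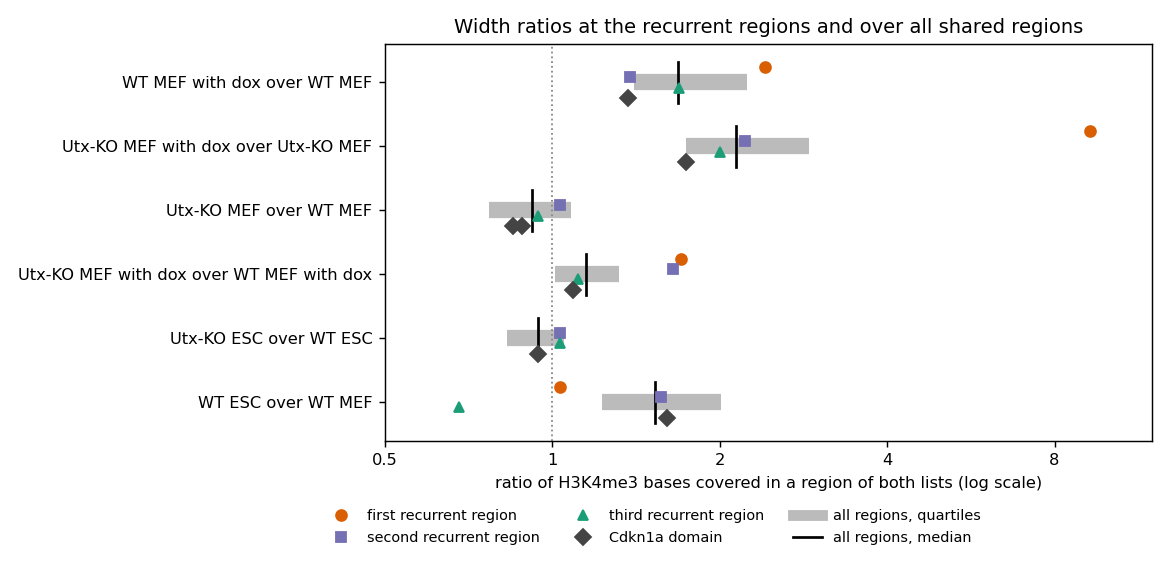
Ratio of H3K4me3 bases covered, on a log scale, at the 3 recurrent regions and the Cdkn1a domain for 6 pairs of states, with the quartiles and median of all regions found in both lists; Cdkn1a has 2 points where it is split into 2 shared regions. The first recurrent region has the highest ratio in both dox rows (2.41 and 9.28), and the third has the lowest in the ESC row (0.68).

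Without Utx, untreated fibroblasts had less H3K27me3 over the Ink4/Arf locus, whereas dox-treated fibroblasts and ES cells had more. Utx-KO MEF covered 1.56 kb, against 8.34 kb in WT MEF (difference -6.78 kb), and 67.2% of stretches with H3K27me3 in WT MEF had over 1.5 times fewer bases in Utx-KO MEF. Both Utx-KO MEF peaks met a WT MEF peak, and 2 of the 7 WT MEF peaks were met. The Utx-KO MEF list held more peaks, 5708 against 4760 in WT MEF. Its peaks had a smaller median width, and over the whole list they covered fewer bases than the 4.59 Mb of WT MEF. With dox, Utx-KO MEF covered 3.18 kb, against 0.630 kb in WT MEF (difference 2.55 kb), and 97.5% of the stretches with H3K27me3 in Utx-KO MEF with dox had over 1.5 times more than in WT MEF with dox. This difference was 0.00 kb with peaks of score 100 or more and -0.63 kb with the 938 top-scoring peaks of both. A score of 100 was reached by 40.6% of H3K27me3 peaks in Utx-KO MEF with dox and by 2.35% in WT MEF with dox. Over the whole lists H3K27me3 covered 6.41 Mb in Utx-KO MEF with dox and 0.643 Mb in WT MEF with dox. In ES cells, the Utx-KO list covered 6.41 kb, against 0.733 kb in WT (difference 5.68 kb), and 99.0% of the 13483 stretches with H3K27me3 in Utx-KO ESC had over 1.5 times more than in WT ESC. The Utx-KO ESC peak contained the WT ESC peak, chr4:88920827-88921559.

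Differences in H3K4me3 between the genotypes were smaller. In the Cdkn2a and Cdkn2b window it covered 4.97 kb in Utx-KO MEF, against 5.52 kb in WT MEF (difference -0.55 kb). With dox it covered 14.1 kb in Utx-KO MEF, against 13.8 kb in WT MEF (difference 0.32 kb). With peaks of score 100 or more alone, these 2 differences were -0.91 and -0.80 kb. In ES cells it covered 6.56 kb in Utx-KO, against 8.03 kb in WT (difference -1.47 kb). The total with dox combined wider and missing regions. Utx-KO MEF with dox was 1.70 times as wide as WT MEF with dox at the first recurrent region and 1.65 times at the second, above 94.6% and 93.6% of 15166 shared regions (median 1.15), while it lacked the WT regions chr4:88918133-88921349 and chr4:88948504-88950636.

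Of the 4 shared regions, 2 were over 1.5 times wider in Utx-KO MEF with dox than in WT MEF with dox, against 11.6% of all; the ratio was 1.11 at the third recurrent region and 1.09 at Cdkn1a. Between untreated Utx-KO and WT MEF, 0 of 4 shared regions were over 1.5 times apart, against 17.9% of 14334. The ratio there was 1.03 at the second recurrent region, 0.94 at the third, and 0.85 and 0.88 at the 2 shared parts of the Cdkn1a domain, beside a median of 0.92. At the first recurrent region the peaks of these 2 lists did not overlap. Between Utx-KO and WT ESC, 1 of 4 shared regions was over 1.5 times narrower in Utx-KO, against 7.02% of 16715. It was chr4:88948504-88950636 at a ratio of 0.62, while the second and the third recurrent region were each at 1.03 and Cdkn1a at 0.94.

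WT ESC had far less H3K27me3 on the Ink4/Arf locus than WT MEF. It covered 0.733 kb in WT ESC, against 8.34 kb in WT MEF (difference -7.61 kb), and 71.2% of stretches with H3K27me3 in WT MEF had over 1.5 times fewer bases in WT ESC. Over the whole lists H3K27me3 covered 6.20 Mb in WT ESC and 4.59 Mb in WT MEF, so this share does not show a general loss. H3K4me3 covered 8.03 kb in WT ESC, against 5.52 kb in WT MEF (difference 2.51 kb). Of the 4 shared regions, 2 were over 1.5 times wider in WT ESC, against 52.2% of 11685. The ratios were 1.03 at the first recurrent region, 1.57 at the second and 1.61 at Cdkn1a, beside a median of 1.53. The third recurrent region was narrower in WT ESC, at 0.68 times its WT MEF width, and only 1.93% of shared regions had a lower ratio.

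The aberrant iPS clones had H3K4me3 but no called H3K27me3 at the Ink4/Arf locus. H3K4me3 covered 5.63 kb in clone 1 and 11.8 kb in clone 2 (mean 8.73 ± 4.39 kb, SD, n = 2). WT ESC, at 8.03 kb, lay between the clones. Utx-KO MEF, at 4.97 kb, lay below both. At the first recurrent region clone 1 had 0.60 times and clone 2 1.77 times the width of WT ESC, beside medians of 0.76 and 1.00 over all shared regions, so the clones fell on opposite sides of WT ESC. At the third recurrent region the clones had 0.80 and 1.32 times the WT ESC width. Utx-KO MEF had 2 peaks there, and the clones shared only the one of 1.94 kb. Against that peak they had 0.73 and 1.20 times the width, beside medians of 1.25 and 1.65. Lower ratios were found at 5.57% and 15.2% of shared regions. Over the whole region Utx-KO MEF covered 2.45 kb, more than clone 1 (1.43 kb) and clone 2 (2.34 kb). The absence of H3K27me3 rests on lists of 135 and 737 peaks, the shortest of the 8, and absence from so short a list does not show that the mark was absent.

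Cdkn1a had a broad H3K4me3 domain and no called H3K27me3 in any state. H3K4me3 was present in all 8 lists, as in 8.74% of 120048 consecutive 22-kb stretches, and of those 10496 stretches 62.5% had no H3K27me3 in any list. The merged domain, chr17:29225966-29236706, was 10.7 kb long. It was covered over 8.02 and 9.36 kb in iPS clones 1 and 2 (mean 8.69 ± 0.950 kb, SD, n = 2), 9.11 kb in Utx-KO ESC, 9.71 kb in WT ESC, 9.03 kb in Utx-KO MEF with dox, 8.24 kb in WT MEF with dox, 5.20 kb in Utx-KO MEF and 6.03 kb in WT MEF. The untreated fibroblasts were thus below every other state and had the domain split into 4 peaks (Utx-KO) and 2 peaks (WT). The ratio with dox over without was 1.37 in WT MEF and 1.74 in Utx-KO MEF. The medians over all shared regions were higher, 1.68 and 2.14. H3K4me3 peaks of untreated fibroblasts were narrow throughout, with medians of 832 bp (Utx-KO) and 1118 bp (WT), against 1304 to 3063 bp in the other lists. In the other 6 lists the main peak reached a score of 3100 and was at least as wide as 99.2% or more of the peaks of its list.

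At Cdkn1a the states differed in the width of H3K4me3, not in its presence. With dox it covered 8.24 kb in WT MEF, against 6.03 kb without (difference 2.21 kb), and 9.03 kb in Utx-KO MEF, against 5.20 kb without (difference 3.83 kb). Without Utx it covered 5.20 kb in MEF, against 6.03 kb in WT (difference -0.84 kb), 9.03 kb in MEF with dox, against 8.24 kb (difference 0.78 kb), and 9.11 kb in ESC, against 9.71 kb (difference -0.60 kb). WT ESC exceeded WT MEF by 3.67 kb. In a window 10 kb wider on each side, which takes in neighbouring peaks, the first of these differences was 5.77 kb, and the Utx-KO difference was -1.13 kb with dox and 0.23 kb in ESC. The nearest H3K27me3 to the window was 20.5 kb away in Utx-KO ESC (score 50.85), 59.1 kb in Utx-KO MEF and 74.4 kb in Utx-KO MEF with dox. Separate H3K4me3 peaks lay just outside the window in every list, at 0.679 kb in iPS clone 2 and 0.708 kb in WT MEF with dox at the closest.

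**Figure D5:**
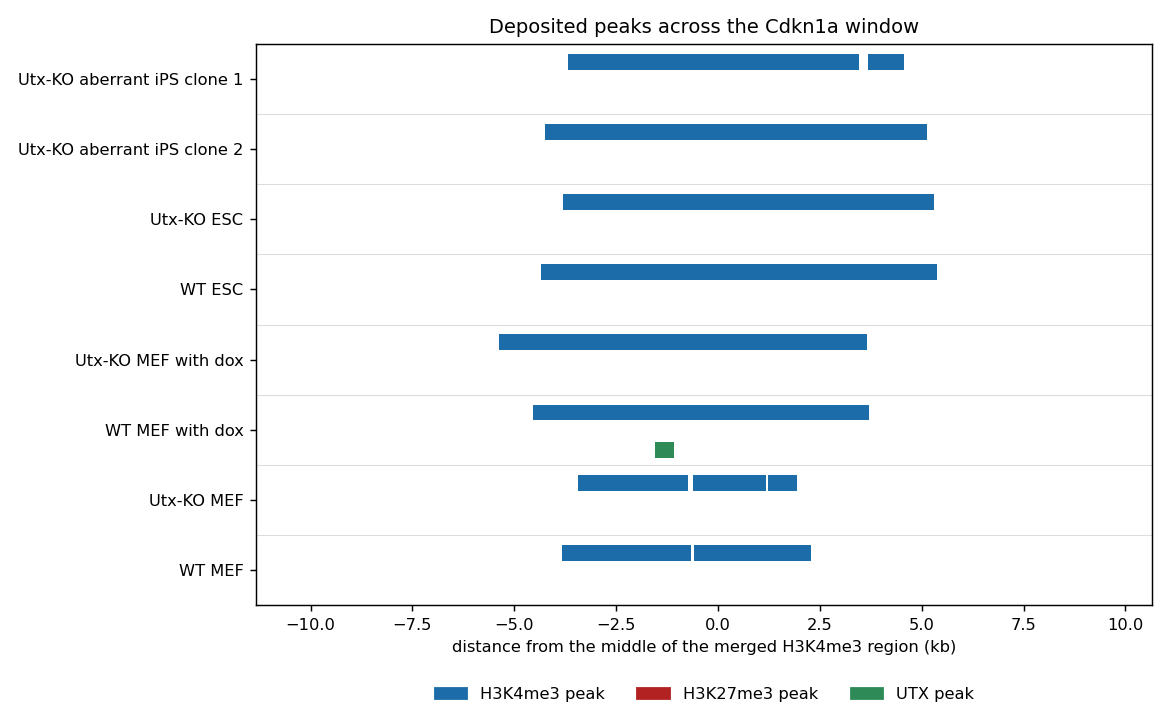
Deposited H3K4me3 peaks (blue) and the UTX peak (green) in the Cdkn1a window, 1 row per library, by distance in kb from the middle of the merged H3K4me3 domain; no H3K27me3 peak was called. The domain is shortest and broken in Utx-KO MEF (5.20 kb) and WT MEF (6.03 kb), and the UTX peak lies within the domain of WT MEF with dox.

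UTX itself was called at 1 of the 2 windows and in 1 of its 3 lists. The peak, chr17:29229800-29230257 in WT MEF with dox, was 458 bp wide, scored 54.54, under the stricter minimum of 100, and ranked 2087 of 3540, and it lay inside the H3K4me3 domain of Cdkn1a. Only 0.452% of the UTX peaks of that list reached 100. In that list 2.96% of 22-kb stretches held a UTX peak. The nearest UTX peaks to the Cdkn1a window were 25.7 kb away in WT ESC and 2406 kb away in WT MEF. The Cdkn2a and Cdkn2b window held 0 UTX peaks, and 13.5% of 47-kb stretches held at least 1 in any of the 3 lists. The nearest was 68.9 kb away in WT MEF with dox, 2081 kb in WT ESC and 3619 kb in WT MEF. The WT MEF list held only 372 UTX peaks, 18 of them on chromosome 4 and 13 on chromosome 17.

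The windows were also compared with the rest of the genome by the set of the 16 histone lists that held a peak. H3K4me3 in all 8 lists with H3K27me3 in all but the iPS clones was shared by 54 of 56199 stretches of 47 kb, or 0.0961%. The pattern of the Cdkn1a window, H3K4me3 in all 8 and H3K27me3 in none, was shared by 6560 of 120048 stretches of 22 kb, or 5.46%.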

How the data were processed

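ChIP-seq peak lists of 19 immunoprecipitated samples (8 H3K27me3, 8 H3K4me3 and 3 UTX, of 27 samples) were used. The 8 whole-cell extracts were not analysed here. Each list was deposited by the authors, 1 per sample, with the position and a score of every peak. The deposited score is the authors' peak value. Its lowest value was 50 and it saturated near 3100. Build mm9 and the tools MACS 1.4.1, Bowtie 0.12.5 and CASAVA 1.8.2 are named in the submitters' processing notes. Settings and control libraries: not given in the sources used here. Read depth was unknown.

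Groups came from the sample titles. Mitochondrial peaks (1 in all) were left out, and the others were intersected with the 2 windows at an overlap of at least 1 bp. Bases under the merged peaks of a list are its covered length. Regions are peaks of the lists merged, and a shared region holds a peak of both lists. The background is every consecutive 47-kb or 22-kb stretch from each chromosome's start to its last peak. The naming rule took all 3 genes. No mm9 annotation was at hand, so peaks were not assigned within the Cdkn2a and Cdkn2b window and other genes of the pathways were not analysed here. Sequences came from RefSeq (GRCm38.p6).

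No test was made, as each state had 1 library. The genes and windows were chosen with earlier results of these data known. The 1.5-fold limit, the criterion of 7 lists for a recurrent region and the score minimum of 100 for UTX were chosen after the data were seen. Alternatives were a score of at least 100, equal numbers of top-scoring peaks, 50% of a peak inside the window, windows wider by 10 kb on each side, and each iPS clone alone. The code was tested on simulated peaks and recovered the covered length for 19 of 19 lists. Python 3.11.15, numpy 2.4.6 and matplotlib 3.10.9 were used, with bedtools 2.31.1 for the check on simulated peaks.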

Additional observations from a re-analysis of the deposited data

Results flagged for a closer look

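Some differences in covered length took opposite signs under the same contrast. Each rests on 1 library per state, and whether the contrasts differ was not tested. In the Cdkn2a and Cdkn2b window, H3K27me3 in fibroblasts with dox minus fibroblasts without it was 1.62 kb in Utx-KO MEF and -7.71 kb in WT MEF. In the same window, H3K27me3 in Utx-KO minus WT cells was -6.78 kb in MEF, 2.55 kb in MEF with dox and 5.68 kb in ESC. H3K4me3 there, Utx-KO minus WT, was -0.55 kb in MEF, 0.32 kb in MEF with dox and -1.47 kb in ESC. At Cdkn1a, H3K4me3 in Utx-KO minus WT cells was -0.84 kb in MEF, 0.78 kb in MEF with dox and -0.60 kb in ESC. Several of these signs changed with the processing. With a score of at least 100, the 1.62 kb became -0.66 kb, the 2.55 kb became 0.00 kb and the 0.32 kb became -0.80 kb. That minimum kept 40.6% of H3K27me3 peaks in dox-treated Utx-KO MEF and 2.35% in dox-treated WT MEF, against 91.8% in Utx-KO MEF. With equal numbers of top-scoring peaks the 2.55 kb became -0.63 kb. In the wider Cdkn1a window the 0.78 kb became -1.13 kb and the -0.60 kb became 0.23 kb. The H3K27me3 lists behind these values held 36231 peaks in Utx-KO ESC, 5679 in WT ESC, 4335 in dox-treated Utx-KO MEF, 938 in dox-treated WT MEF, 5708 in Utx-KO MEF and 4760 in WT MEF.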

How the results depend on the processing

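For 30 results, 104 alternative values were computed; 7 changed sign, 14 moved by over 1.5 times (for iPS means, by over the SD of the clones) and 83 stayed within these limits. The cause was not tested. With a score of at least 100, H3K27me3 was called over Cdkn2a and Cdkn2b in 3 lists in place of 6 and UTX over Cdkn1a in 0 in place of 1. That minimum kept only 0.452% of UTX peaks and 2.35% of H3K27me3 peaks in WT MEF with dox, which nearly empties those lists. Differences in covered kb over Cdkn2a and Cdkn2b were then -0.91 (H3K4me3, Utx-KO MEF minus WT MEF), -0.80 (H3K4me3, Utx-KO minus WT MEF, both with dox), -0.66 (H3K27me3, Utx-KO MEF with dox minus Utx-KO MEF), 0.00 (H3K27me3, Utx-KO minus WT MEF, both with dox), 0.00 (H3K27me3, iPS mean minus WT ESC) and -0.66 (H3K27me3, iPS mean minus Utx-KO MEF). With equal numbers of top-scoring peaks, 0 lists had H3K27me3 there, and the differences were -0.91 and -0.79 for H3K4me3 (Utx-KO MEF minus WT MEF, iPS mean minus WT ESC) and -3.66, 2.52, -0.63, 0.00 and 0.00 for H3K27me3 (WT with dox minus without, Utx-KO with dox minus without, Utx-KO minus WT with dox, iPS mean minus WT ESC, iPS mean minus Utx-KO MEF). In the Cdkn1a window wider by 10 kb on each side, H3K4me3 differences were 5.77 (WT MEF with dox minus without), -1.13 (Utx-KO minus WT MEF, both with dox), 0.23 (Utx-KO ESC minus WT ESC) and 5.34 (iPS mean minus Utx-KO MEF). For H3K4me3, leaving out an iPS clone gave, over Cdkn2a and Cdkn2b, -2.40 to 3.81 against WT ESC (both clones, 0.71) and 0.66 to 6.87 against Utx-KO MEF (3.77), and at Cdkn1a -1.69 to -0.35 against WT ESC (-1.02) and 2.82 to 4.16 against Utx-KO MEF (3.49). The iPS mean minus WT ESC was also 0.23 over Cdkn2a and Cdkn2b with a score of at least 100 and -0.45 at Cdkn1a in the wider window. No paired analysis was possible because only the iPS clones carry replicate numbers and no test was made. Unknown depth limits every absence, above all in the H3K27me3 lists of 135, 737 and 938 peaks.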
